A study of Mus musculus with 12 samples.

Results

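In LPS-activated mouse B cells, 33 genes kept a similar mRNA level upon etoposide and had a lower level when the ATM kinase inhibitor KU55933 was present as well. They were chosen by their measured values. Each column of the deposited table of normalised counts was divided by its sum and multiplied by 1000000, the 4 columns of a condition were averaged, and a gene was kept at a mean over the 3 conditions of at least 8 normalised counts per 1000000 (CPM), a log2 ratio of LPS + etoposide to LPS between -0.2 and 0.2, and a log2 ratio of LPS + KU55933 + etoposide to LPS + etoposide of at most -0.6. The table lists 29486 genes, of which 9830 reached the mean of 8 CPM and 3000 of these (30.5%) lay within the window for etoposide. Within the window, 33 genes (1.1%) were at or below -0.6 with the inhibitor and 158 (5.27%) were at or above 0.6. Among all 9830 genes these shares were 5.41% (532 genes) and 6.39% (628 genes), and outside the window 499 of 6830 genes (7.31%) were at or below -0.6. Both ratios served to choose the genes, so their values are given here as a description with no test.

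All cells were primary splenic B cells of young adult C57BL/6Babr mice, isolated with a kit and cultured with LPS at 10 μg/ml, and polyadenylated RNA was sequenced. The first condition received LPS alone (48 h on the label). The second received LPS for 48 h and etoposide at 20 μM for 4 h, and the third LPS for 47 h, KU55933 at 10 μM for 1 h and then etoposide at 20 μM for 4 h, with 4 libraries in each condition. No condition held KU55933 without etoposide, so the inhibitor by itself and the inhibitor on damaged cells cannot be told apart. The labels do not say how many mice were used, nor their sex, nor whether the 48 h of LPS alone included the 4 h that the other cells spent with etoposide.

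The deposited columns of a condition were exact multiples of each other, with log2 ratios constant over genes to within 2.75e-14, as values fitted per condition and multiplied by a library factor are. After scaling, the 4 libraries of a condition therefore had the same value for every gene. One value per condition stands for all 4 libraries below, no spread between replicates could be computed, and no difference could be set against one. Column totals, which stand for depth, ranged from 20.4 to 30.6 in units of 1000000 counts. Each condition carried Illumina indexes that no other condition carried, and an effect of the index cannot be told apart from the treatment. The B cell marker Cd79a was at 880.0 CPM with LPS, 675 with LPS + etoposide and 721 with the inhibitor added, and Cd79b at 849, 580.0 and 767. Ms4a1 was lower in each (1236, 888 and 594 CPM), while Pax5 (218, 48.4 and 51.9) and Cd22 (950.3, 185 and 225) were lower upon etoposide and stayed low. The 5 T cell markers summed to at most 0.838 and the 3 neutrophil markers to at most 0.0473 CPM in any condition.

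Etoposide traps topoisomerase II on cut DNA and leaves double-strand breaks. ATM is the kinase that answers such breaks, and it phosphorylates p53, Chk2 and many other proteins. LPS acts through the Toll-like receptor TLR4 and drives resting B cells into growth, division and, in part, antibody secretion. The genes below serve cytokine and kinase signalling, metabolism, the nucleus, and membranes and the cytoskeleton.

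The 33 genes had a median log2 ratio of 0.018 for LPS + etoposide against LPS (16 below 0 and 17 above), and of -0.69 for the inhibitor condition against LPS + etoposide (from -1.22 to -0.61). Against LPS alone their median with KU55933 and etoposide was -0.72 (from -1.24 to -0.42), a range whose sign follows from the 2 thresholds. The 499 genes outside the window that were at or below -0.6 with the inhibitor had a median of 0.73 in that comparison. Of these 364 were above LPS. In bulk RNA, fewer cells that express a gene and less RNA per cell cannot be told apart. Levels in the inhibitor condition, which are not corrected for gene length, ran from 5.84 CPM for Gstt1 to 200.1 for Mat2a.

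**Figure D1:**
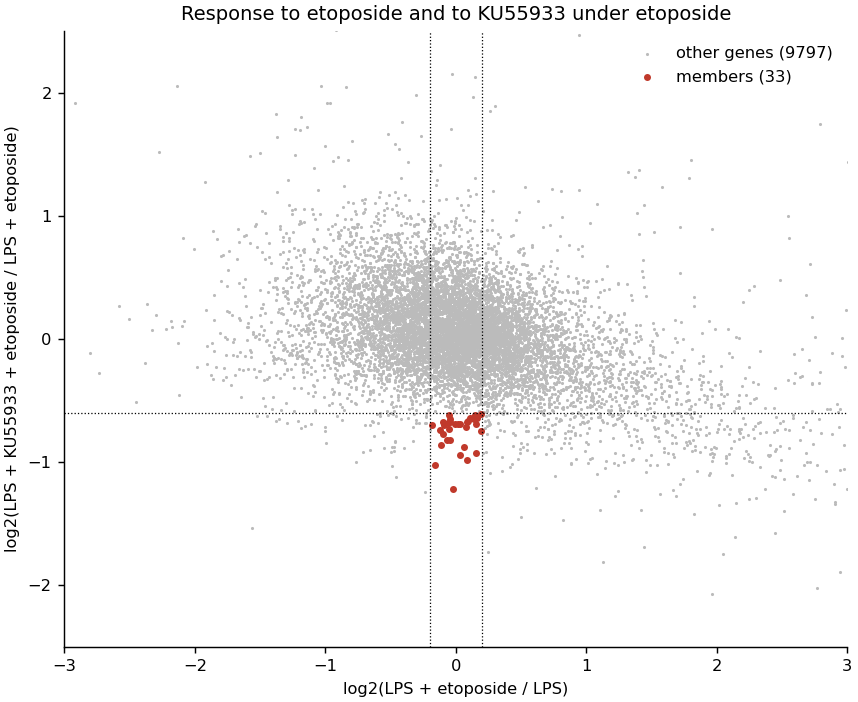
Each point is 1 of the 9830 genes with a mean of at least 8 CPM, with the log2 ratio of LPS + etoposide to LPS on the x axis and of LPS + KU55933 + etoposide to LPS + etoposide on the y axis. The 33 chosen genes (red) lie in the strip between the dotted lines at -0.2 and 0.2 and below the dotted line at -0.6, and 112 genes beyond the axes are not drawn.

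The word level in this description depends on how the columns were scaled. Over all 9830 genes the median log2 ratio of LPS + etoposide to LPS was 0.025 with column sums, -0.19 when columns were scaled by the median of ratios and -0.16 with the trimmed mean of M values. Under these scalings 33 and 31 of the 33 genes lay below LPS upon etoposide, with medians of -0.20 and -0.17, since each of these scalings shifts all genes by the same amount. For KU55933 against LPS + etoposide, 33 of 33 genes were at -0.61 or lower under each of the 4 scalings. With column sums the rule required a low ratio. The median of ratios and the trimmed mean each lower this ratio by an equal amount for all genes. Their counts therefore followed from the rule too. The whole rule was met under all 4 scalings by 13 genes, among them E2f3, Rhobtb1, Stk10, Fam49a, Slc39a10, Fabp5, Phb, Slc35g1, Spred2, Zfp143, Amd2 and Pgam1-ps2. Il5ra, Crip1, Tec, Gm8898 and Rbm12 met it with column sums but with none of the other 3 scalings, because their log2 ratios for etoposide then lay below -0.2.

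**Figure D2:**
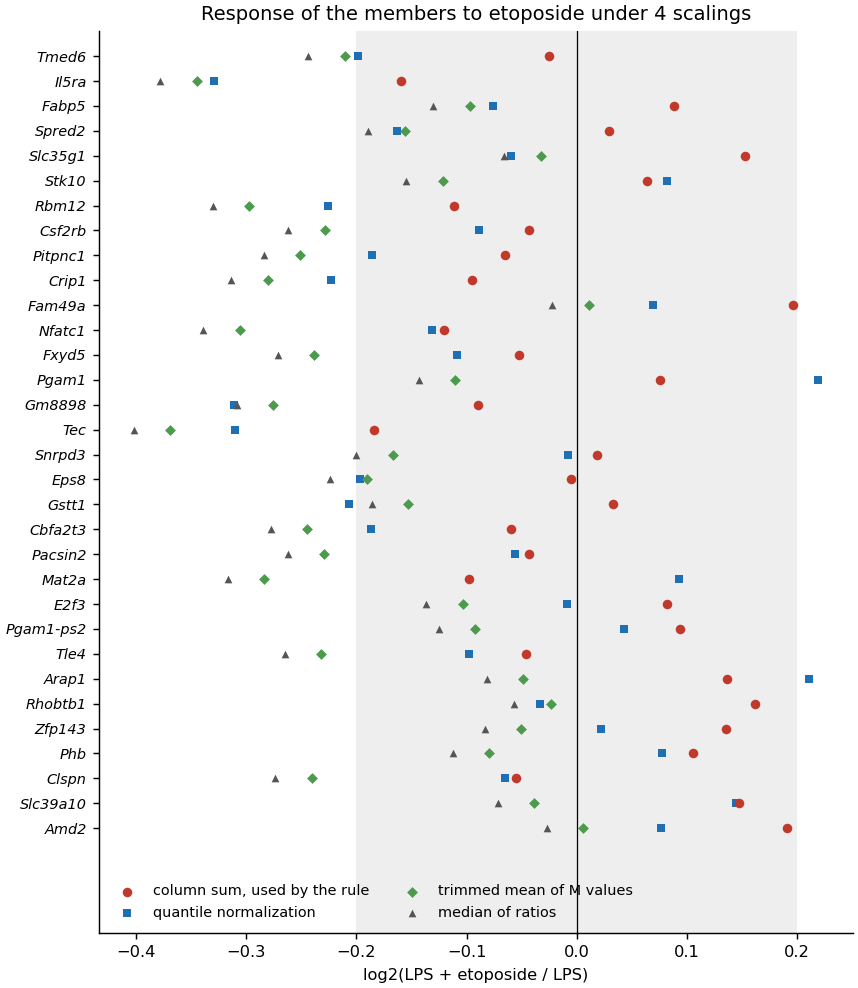
The log2 ratio of LPS + etoposide to LPS is plotted for 32 of the 33 genes under 4 ways of scaling the columns, with the window of -0.2 to 0.2 shaded. Red circles (column sums) lie inside the window by the rule, and the grey triangles (median of ratios) lie below 0 for all 32 and outside the window for 17.

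Next to the thresholds, Amd2 (-0.61), Slc39a10 (-0.62) and Clspn (-0.62) were just inside the limit of -0.6, while Sfpq, Gpr155 and Rbm19 (-0.59, -0.59 and -0.58) stayed just outside. At the upper end of the window Fam49a (0.20), Amd2 (0.19) and Rhobtb1 (0.16) were inside, and 5031425E22Rik (0.21), Ubash3b (0.21) and Acy1 (0.22) outside. At the lower end Tec (-0.18), Il5ra (-0.16) and Nfatc1 (-0.12) were inside, and Pvt1 (-0.2003), Ldha (-0.23) and Znrf3 (-0.23) outside. The mean over conditions of Gstt1 was 8.15, of Gm8898 8.94 and of Slc35g1 9.47 CPM, and Lipc (7.86), S1pr3 (7.58) and Arhgap10 (6.48) were left out by the mean alone.

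**Figure D3:**
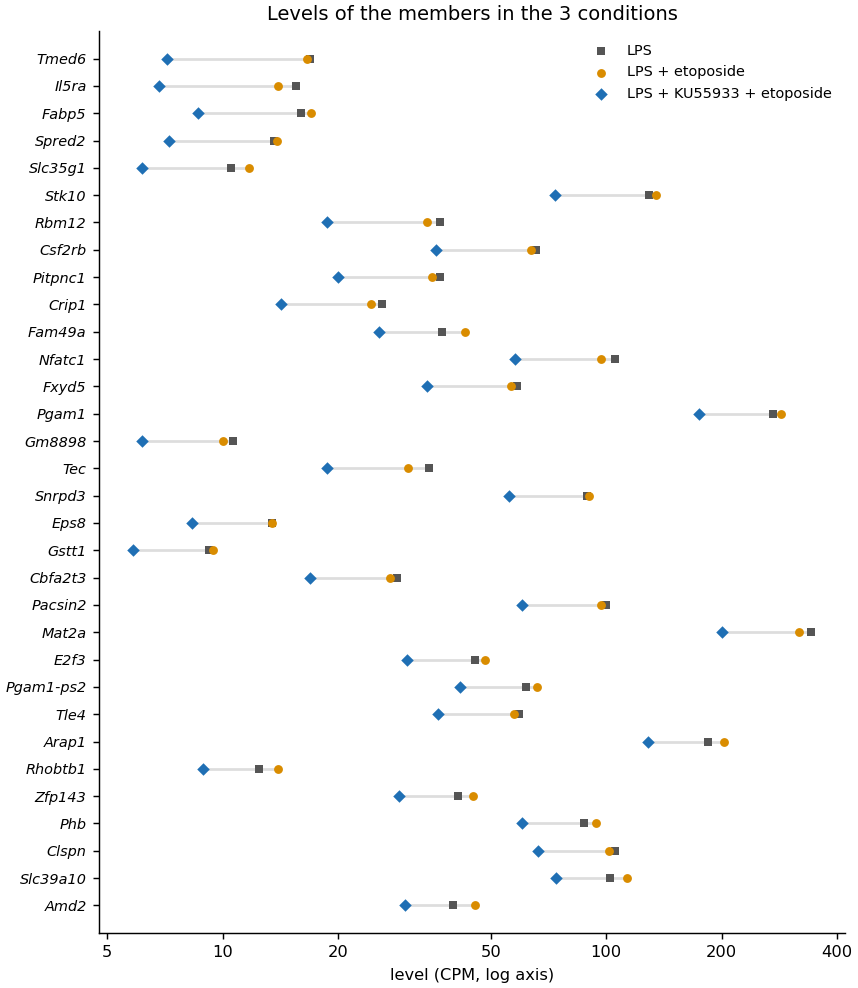
Levels in CPM on a log axis are plotted for 32 of the 33 genes, ordered by the ratio of LPS + KU55933 + etoposide to LPS + etoposide, with Tmed6 at the top. Squares (LPS) and circles (LPS + etoposide) lie close together for each gene, and each diamond (LPS + KU55933 + etoposide) lies to their left. The rule requires both.

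The promoters of the genes were read from RefSeq windows of 300 bases, 250 before to 50 after a start site, on GRCm38.p6. By symbol 25 of the 33 genes matched, with 36 windows since some genes have several starts, and the 2 windows of Zfp143 overlap almost wholly. Of 28 motifs searched on both strands, the 2 described first had the widest gaps between these windows and those of all genes, and were picked after their values were seen. A CCAAT box (CCAAT), the site bound by the trimeric factor NF-Y, occurred in 21 of the 36 windows (58.3%), against 38.4% of 9129 windows of all genes with a mean of at least 8 and 36.3% of windows of the 499 genes lowered outside the etoposide window. The core of the site for ETS factors (CCGGAA) occurred in 3 windows (8.33%), those of Cbfa2t3, Snrpd3 and Stk10, against 30.9% of all windows, 35.6% for genes that were level upon etoposide and not lowered, and 21.5% for the 499 genes. By gene, 17 of 25 held a CCAAT box (68.0%, against 43.8% of all genes) and 3 of 25 the ETS core (12.0%, against 35.9%). The GC box (GGGCGG) was in 61.1% of the windows against 64.6%, the TATA box (TATAAA) in 8.33% against 6.44%, and the median GC content was 61.0% in both sets. These shares are descriptions of letters in a window and not of binding.

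The promoters of 6 genes are shown because they hold these motifs in different combinations, or none of them, in genes described below. Only the 250 bases before the start are printed, 5′ to 3′ on the strand of the gene, with capitals for the CCAAT box, the GC box, the ETS core, the TATA box, and for AP-1 (TGANTCA), E2F (GCGGGAAA) and octamer (ATGCAAAT) motifs, on either strand. They lie at chr8:107065645-107065894 (Tmed6, minus strand), chr6:106749038-106749287 (Il5ra, minus), chr11:32533016-32533265 (Stk10, plus), chr6:72439557-72439806 (Mat2a, minus), chr13:29986064-29986313 (the outer of 2 E2f3 starts, minus) and chr10:75517792-75518041 (Snrpd3, plus).
Tmed6: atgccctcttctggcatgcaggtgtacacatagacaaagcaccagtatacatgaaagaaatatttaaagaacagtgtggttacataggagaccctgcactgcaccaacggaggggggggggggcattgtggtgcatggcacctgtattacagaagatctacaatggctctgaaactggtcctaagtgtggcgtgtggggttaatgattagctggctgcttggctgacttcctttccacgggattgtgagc
Il5ra: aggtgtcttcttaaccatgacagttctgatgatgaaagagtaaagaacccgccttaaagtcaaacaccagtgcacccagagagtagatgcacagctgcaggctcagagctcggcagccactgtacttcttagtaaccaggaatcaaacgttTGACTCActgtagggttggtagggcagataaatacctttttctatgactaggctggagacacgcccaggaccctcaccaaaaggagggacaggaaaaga
Stk10: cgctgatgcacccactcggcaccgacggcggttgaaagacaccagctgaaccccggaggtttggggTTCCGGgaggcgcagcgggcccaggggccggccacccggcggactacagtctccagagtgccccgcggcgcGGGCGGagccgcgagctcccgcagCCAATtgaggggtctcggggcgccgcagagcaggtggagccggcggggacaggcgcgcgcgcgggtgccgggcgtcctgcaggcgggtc
Mat2a: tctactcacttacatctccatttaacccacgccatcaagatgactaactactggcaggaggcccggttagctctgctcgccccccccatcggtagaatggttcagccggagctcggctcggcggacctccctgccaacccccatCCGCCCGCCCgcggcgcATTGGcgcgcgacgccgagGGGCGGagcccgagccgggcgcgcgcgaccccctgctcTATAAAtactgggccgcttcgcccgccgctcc
E2f3: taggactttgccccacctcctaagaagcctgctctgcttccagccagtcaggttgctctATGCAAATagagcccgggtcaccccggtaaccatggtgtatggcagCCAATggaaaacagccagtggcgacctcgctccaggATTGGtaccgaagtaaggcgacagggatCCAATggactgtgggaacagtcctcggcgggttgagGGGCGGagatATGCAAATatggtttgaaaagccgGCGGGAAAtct
Snrpd3: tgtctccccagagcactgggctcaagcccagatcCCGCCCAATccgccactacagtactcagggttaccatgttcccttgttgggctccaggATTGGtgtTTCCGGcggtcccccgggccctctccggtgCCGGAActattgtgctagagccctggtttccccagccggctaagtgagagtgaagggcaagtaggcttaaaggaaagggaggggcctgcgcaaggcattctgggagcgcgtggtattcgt
In this stretch E2f3 had 3 CCAAT boxes, 2 octamers, which are bound by Oct factors, and an E2F motif that ends 4 bases before the start. Octamers were found in 5.56% of the windows (2 of 36, E2f3 and Pacsin2) and in 1.25% of all windows, and the E2F letters in 2.78% and 2.09%. Mat2a had a TATA box 32 bases before its start, a CCAAT box and 3 GC boxes, of which 2 overlap. In Snrpd3, with 2 ETS cores and 2 CCAAT boxes, the first CCAAT box overlaps a GC box. AP-1 letters were in 5.56% of the windows against 4.46% of all, Il5ra among them, and none of the capitals' motifs was found for Tmed6.

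**Figure D4:**
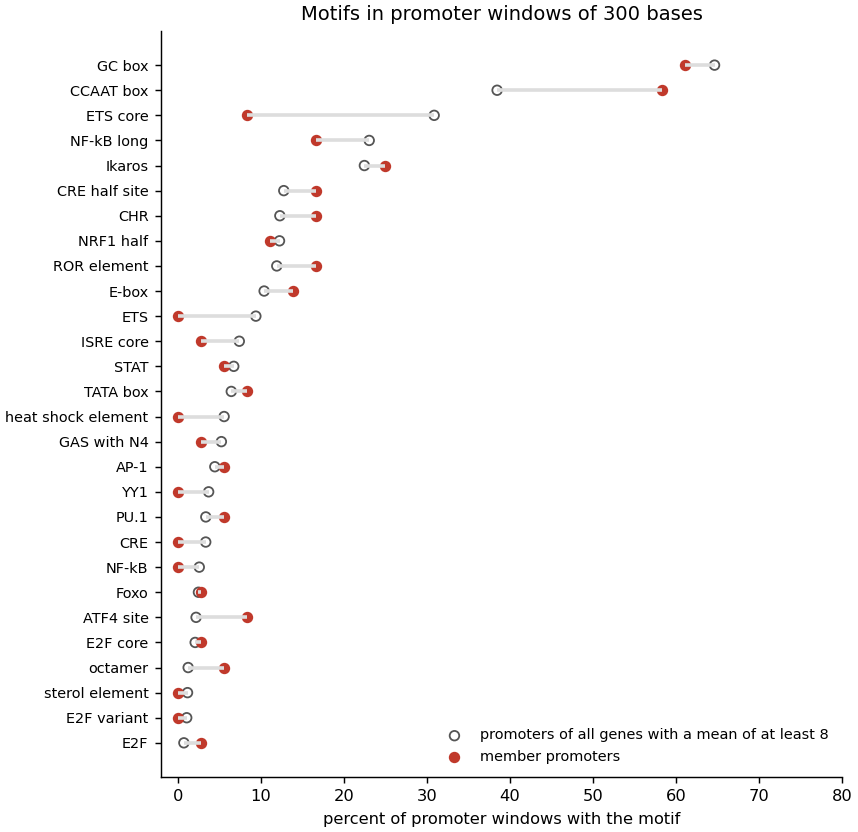
The percent of 300-base promoter windows that hold each of 28 motifs is plotted for the 36 windows of the chosen genes (red) and for 9129 windows of all genes with a mean of at least 8 CPM (open circles). The CCAAT box (58.3% against 38.4%) and the ETS core (8.33% against 30.9%) lie farthest apart.

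Cytokine receptors and signalling proteins made up 7 of the genes. Il5ra, the chain that binds interleukin 5, was at 15.5 CPM with LPS, 13.9 with LPS + etoposide and 6.82 with LPS + KU55933 + etoposide, a log2 ratio of -1.03 for the last against the second. Csf2rb, the signalling chain shared by the receptors for interleukin 5, interleukin 3 and GM-CSF, was at 65.6, 63.7 and 36.0 CPM in the same order (-0.82). Both chains of the interleukin 5 receptor were at their lowest in the inhibitor condition, as the rule requires of each of the 33 genes. The chains that bind interleukin 3 and GM-CSF went the other way: Il3ra was at 7.80, 7.39 and 16.3 CPM (1.14) and Csf2ra at 14.5, 12.9 and 25.7 (1.00), and each lay within the window for etoposide. Csf2rb2, a near copy of Csf2rb, was too low to be considered (2.97 to 5.16 CPM), and 6.96% of the stretches of 100 bases of Csf2rb mRNA, the length of a read, also occur in other genes. Il5ra had 13 exonic blocks on chromosome 6 (106710357 to 106749037), and Csf2rb lies on chromosome 15 from 78325752 to 78353847.

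A list for cytokine receptors and JAK-STAT signalling, which does not hold Csf2rb, had 25 measured genes. Il5ra was the 1 gene of these at or below -0.6 with the inhibitor, and 5 were at or above 0.6. Of all genes 5.41% and 6.39% were. The list's median log2 ratio was 0.19, against 0.025 for all genes. Il21r, Stat3 and Jak1, its genes with the highest means outside the rule, had log2 ratios of 0.11, 0.55 and -0.07.

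Tec is a cytoplasmic tyrosine kinase that works below antigen and cytokine receptors. It stood at 34.5 CPM with LPS, 30.3 with LPS + etoposide and 18.7 with the inhibitor (-0.70). Its relative Btk, the main Tec family kinase of B cells, was lower upon etoposide already (187 and 108 CPM) and was at 116 with the inhibitor (0.10).

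Stk10, a kinase that regulates adhesion and the ERM proteins of the cell cortex, lies on chromosome 11 from 32533305 to 32624587 and was at 129, 135 and 73.6 CPM (-0.88). Its closest relative Slk was at 86.7, 79.0 and 83.9 (0.09). Spred2, an inhibitor of Ras-MAPK signalling, was at 13.6, 13.9 and 7.22 CPM (-0.94). In the list of MAPK feedback genes 3 of 13, Spred2 included, were at or below -0.6 and 2 at or above 0.6 (median -0.04). Of all genes 5.41% and 6.39% were. Dusp4, Rasa2 and Etv6 had log2 ratios of 1.85, -0.04 and -0.03. Dusp4 dephosphorylates MAP kinases, and thus Spred2 and Dusp4, which both damp MAPK signalling, lay on opposite sides.

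Nfatc1 codes for a calcium-regulated transcription factor that acts downstream of the B cell receptor. It was at 105 CPM with LPS, 96.8 with LPS + etoposide and 58.0 with LPS + KU55933 + etoposide (-0.74). Nfatc2 had a similar ratio with the inhibitor (-0.78) but was higher upon etoposide (17.6 and 33.1 CPM), whereas Nfatc3 was higher with the inhibitor (219 and 368 CPM, 0.75) and Nfat5 near 0 (-0.01). A list for B cell receptor signalling, which does not hold Tec, had 23 genes. Nfatc1 was the 1 gene of these at or below -0.6 and none was at or above 0.6, against 5.41% and 6.39% of all genes. The list had a median of -1.01 for etoposide against LPS and of -0.01 for the inhibitor against etoposide, and Syk, Ptprc and Cd22, its genes with the highest means, had 0.06, -0.14 and 0.28 in the latter.

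**Figure D5:**
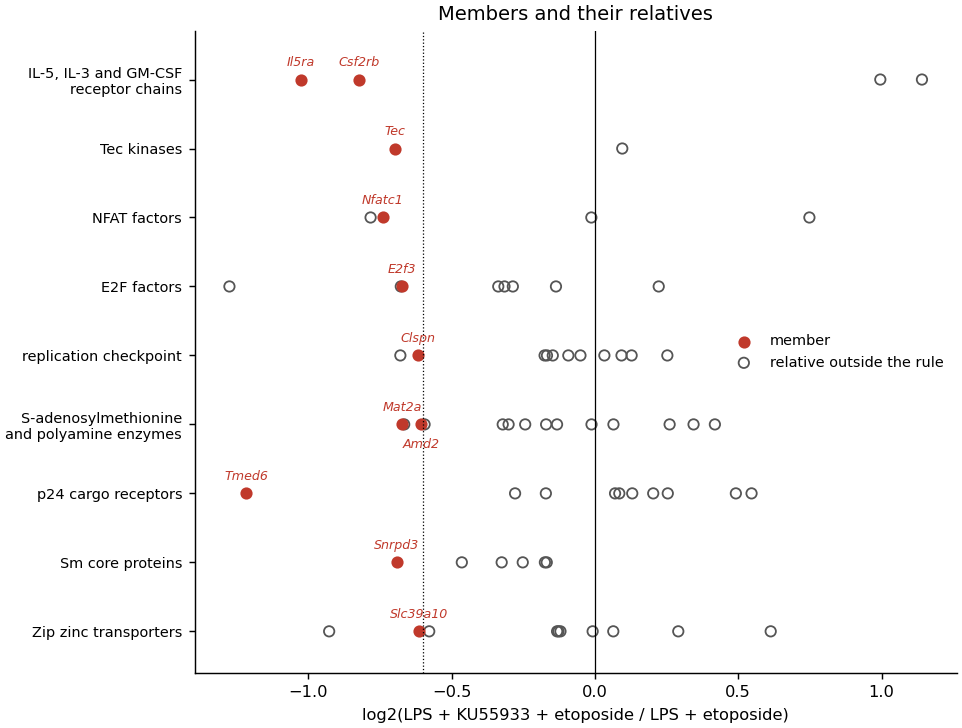
The log2 ratio of LPS + KU55933 + etoposide to LPS + etoposide is plotted for members (red) and relatives with a mean of at least 8 CPM (open circles) in 9 gene families, with a dotted line at -0.6. Il5ra (-1.03) and Csf2rb (-0.82) lie left of 0 and the open circles of Il3ra (1.14) and Csf2ra (1.00) right of it, while all 6 Sm core proteins lie left of 0, where 46.6% of all genes lie.

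Metabolic genes numbered 7 with the pseudogene Pgam1-ps2 counted. Among them, the pseudogene included, were those with the 4 highest levels per kilobase of exon. Mat2a makes S-adenosylmethionine, the methyl donor of the cell, and was at 342 CPM with LPS, 319 with LPS + etoposide and 200.1 with the inhibitor (-0.67). Mat2b, its regulatory partner, was at 81.6, 81.4 and 85.1 (0.06). Exons of the noncoding gene Particl overlap 508 bases of Mat2a on the opposite strand. S-adenosylmethionine decarboxylase turns the same metabolite towards polyamines. Of its 2 copies, Amd2 was at 39.9, 45.6 and 29.9 CPM (-0.61), and Amd1, at 111, 129 and 85.3 (-0.59 and 0.22 for etoposide), fell just outside the rule on both ratios. These copies share 72.9% of the 100-base stretches of Amd2, which has 1 exon, so their levels are uncertain one against the other. Mtap, which salvages methionine, had a like ratio with the inhibitor (-0.67), but was lower upon etoposide first (110.0 and 47.5 CPM). Among 14 enzymes and regulators of S-adenosylmethionine and polyamines 3 were at or below -0.6, Mat2a and Amd2 by the rule and Mtap. None was at or above 0.6, and the shares of all genes were 5.41% and 6.39%. The median of the 14, with Mat2a and Amd2, was -0.21.

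Pgam1, phosphoglycerate mutase of glycolysis, had the highest level per kilobase of exon (137 CPM per kilobase with LPS), at 272, 287 and 174 CPM (-0.72). The processed pseudogene Pgam1-ps2 on chromosome 7 (27469771 to 27470535) was at 61.7, 65.9 and 41.6 CPM (-0.66). Every 100-base stretch of the pseudogene also occurs in Pgam1 or its other copies, as do 39.7% of those of Pgam1 elsewhere, so the levels of the pair are uncertain one against the other. Of 21 glycolysis genes 2 were at or below -0.6, Pgam1 and Ldha (-0.63), and none was at or above 0.6, against 5.41% and 6.39% of all genes. Of the 21, Pgam1 included, 16 lay below 0 (median -0.25), as did 46.6% of all 9830 genes. Pkm, Gapdh and Aldoa, with the highest means of the list, had log2 ratios of -0.44, -0.27 and 0.08.

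Fabp5, which carries fatty acids in the cytosol, was at 16.0, 17.0 and 8.62 CPM (-0.98). Gstt1, a theta class glutathione transferase, was at 9.21, 9.42 and 5.84 (-0.69), while its relative Gstt2 was at 129, 56.7 and 109 (0.94), lower upon etoposide and higher again with the inhibitor. Phb, a scaffold protein of the inner mitochondrial membrane, was at 87.6, 94.2 and 60.4 (-0.64), and its partner Phb2 at 162, 139.7 and 137.5 (-0.02). Of the 100-base stretches of Phb, 42.8% occur in other genes, chiefly Gm7666.

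Nuclear and RNA-binding proteins were coded by another 7 genes. E2f3, which drives entry into S phase, was at 45.6 CPM with LPS, 48.3 with LPS + etoposide and 30.3 with LPS + KU55933 + etoposide (-0.67). Of 8 E2F genes 7 were below 0 with the inhibitor, E2f3 included, against 46.6% of all genes. E2f7 (-1.28) and E2f8 (-0.68), which repress E2F targets, lay outside the window for etoposide in opposite directions (1.22 and -0.63). In the list for E2F and cell cycle entry 7 of 18 genes, E2f3 included, were at or below -0.6 and none at or above 0.6. Of all genes 5.41% and 6.39% were. The list had a median of -0.34, and Ccnd2, Tfdp1 and Cdk4 had 0.01, -0.66 and -0.07. Clspn codes for claspin, which brings Chk1 to the ATR kinase at stalled forks, and was at 106, 102 and 66.4 CPM (-0.62). Tipin, of the fork protection complex, had -0.68 with the inhibitor after a higher level upon etoposide (0.32), and the kinases Chek1 and Atr themselves had -0.15 and 0.25.

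Zfp143, a zinc finger protein that binds promoters, was at 41.1, 45.1 and 28.9 CPM (-0.64). The corepressors Tle4 (59.3, 57.5 and 36.5; -0.65) and Cbfa2t3 (28.4, 27.3 and 16.9; -0.69) had like ratios. Their relatives Tle3 and Cbfa2t2 were lower with the inhibitor too (-0.45 for each) but higher upon etoposide (0.41 and 0.68), and Tle1 had 0.32. Rbm12, an RNA-binding protein, was at 36.9, 34.1 and 18.8 CPM (-0.86). It shares 32.1% of its 100-base stretches with the overlapping genes Gm28036 and Cpne1 on its own strand, and its paralogues Rbm12b1 and Rbm12b2 had -0.49 and -0.42. Snrpd3, a subunit of the Sm ring of spliceosomal RNAs, was at 89.0, 90.2 and 55.8 (-0.69), the lowest of 6 measured Sm genes. The other 5 were below 0 as well, as were 46.6% of all genes, and the median with Snrpd3 was -0.29.

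Membrane, transport and cytoskeletal genes formed the largest group, with 11. Tmed6, a cargo receptor of the early secretory pathway, had the lowest ratio of all 33 genes, at 16.9 CPM with LPS, 16.6 with LPS + etoposide and 7.14 with the inhibitor (-1.22), or 43.0% of the level with LPS + etoposide. It lies on chromosome 8 from 107061476 to 107065644. The other 9 p24 family genes ranged from -0.28 to 0.55. Slc35g1, a membrane carrier, was at 10.5, 11.7 and 6.16 (-0.93). Slc39a10, which imports zinc, was at 102, 113 and 73.8 CPM (-0.62), and among 10 measured zinc importers of its family Slc39a14 was lower too (-0.93) after a higher level upon etoposide (35.0 and 137 CPM). Slc39a3 of the same family was higher with the inhibitor (16.8 and 25.7 CPM, 0.61).

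Fxyd5, a modulator of the sodium pump, was at 58.6, 56.5 and 34.1 CPM (-0.73), and Pitpnc1, which carries phosphatidylinositol between membranes, at 36.8, 35.1 and 19.9 (-0.82). Arap1, which switches off Arf GTPases, was at 184, 203 and 129 (-0.65), and its relative Arap2 had -0.40. Pacsin2, which bends membranes, was at 99.8, 96.8 and 60.5 (-0.68). Rhobtb1, an atypical GTPase with BTB domains, was at 12.4, 13.9 and 8.91 (-0.64), against 0.33 for Rhobtb2. Eps8, which caps and bundles actin filaments, was at 13.5, 13.4 and 8.31 (-0.69), with the lowest level per kilobase of exon (1.09 CPM per kilobase with LPS). Fam49a, which binds the GTPase Rac1, was at 37.4, 42.8 and 25.5 (-0.74), against 0.17 for Fam49b. Crip1, a small LIM domain protein, was at 26.0, 24.3 and 14.2 (-0.77). The last gene, Gm8898, was placed in none of these groups and was at 10.6, 10.0 and 6.15 (-0.70). It is named Zfp966 in GENCODE M21. Of its 100-base stretches 78.7% occur in other genes, chiefly the zinc finger genes Zfp967, Zfp968 and Zfp969.

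In 24 families drawn up after the genes were known, 77 relatives outside the rule had a mean of at least 8 CPM. Of these, 25 lay within the window for etoposide, where by the rule none could be at or below -0.6. Among the rest, outside the window, 6 were at or below -0.6 with the inhibitor. Among all 77 relatives 6 were at or above 0.6. Of all genes 5.41% and 6.39% were, and of genes outside the window 7.31% were at or below -0.6. The median log2 ratio of the relatives was -0.09, against 0.025 for all genes. Of 49 pathway lists, 44 held none of the 33 genes and no list held more than 1, so 28 genes are in no list. By the rule only genes within the window for etoposide could be chosen. Of all 3000 such genes 33 (1.1%) were, so most lists could hold few or none. The list of p53 targets had a median log2 ratio of 2.74 upon etoposide and of -0.57 for the inhibitor against etoposide. Of its genes 12 of 30 were at or below -0.6, against 5.41% of all genes, and 2 lay within the window. Lists for mitosis (8 of 24 at or below -0.6, 1 within the window) and B cell identity (0 of 22, 0 within the window) likewise held none. The list for the ATF4 response (0 of 23 at or below -0.6, 17 at or above 0.6, 3 within the window) held none either.

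Markers of plasma cells moved in the same comparison. Of 5 such markers 3 were at or below -0.6 with the inhibitor (Sdc1, Irf4 and Jchain, at -1.57, -0.92 and -0.88), against 5.41% of all genes. Prdm1 was at -0.45 and Xbp1 at 0.08. Their sum was 986 CPM with LPS, 1116 with LPS + etoposide and 713 with LPS + KU55933 + etoposide, and its part in the values of the 33 genes was not tested. None of the 5 was in the window for etoposide. Csf2rb is also known from myeloid cells. The 6 macrophage markers summed to 16.5, 20.2 and 19.2 CPM in the 3 conditions, each at 9.12 CPM or less, with Csf1r at 0.45 or less. Of 4 dendritic cell markers, Flt3 was higher with the inhibitor (110.4 CPM with LPS, 71.3 with LPS + etoposide and 131 with KU55933 added, 0.88). Zbtb46 was higher as well (4.06, 7.83 and 18.1, 1.21), whereas Itgax and Siglech were at 0.22 CPM or less. Among the other markers with a mean of at least 8 CPM, the stroma marker Pecam1 was at 144, 45.3 and 84.3 CPM (0.89) and the platelet marker Itga2b at 1.49, 16.4 and 7.94 (-1.04). The other stroma markers, Col1a1 and Col3a1, were at 0.482 CPM or less. The other platelet markers, Pf4 and Ppbp, were at 0.599 CPM or less. The part of these markers in the values of the 33 genes was not tested. The red cell markers summed to at most 8.50 CPM and the NK cell markers to at most 0.0633.

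The genes lie on 15 chromosomes, with at most 4 on any, and the nearest pair, Snrpd3 and Gstt1 on chromosome 10, is 246 kb apart. By GENCODE M21 on GRCm38, the same build as the data, 32 of 33 are protein coding. Their genomic span had a median of 36969 bases, against 19685 for the 2967 genes that were level upon etoposide and not lowered, 25066 for the 499 genes lowered outside the window and 21978 for all genes. The 3′ UTR, taken from the transcript with the longest coding sequence, had a median of 1794 bases over 32 genes, against 892, 1052 and 1031 in the same order. Its AU content (54.9%) and the rate of AUUUA, a motif of unstable mRNAs (1.41 per kilobase), were near those of all genes (55.7% and 1.34). Any AUUUA was present in 26 of the 32 UTRs (81.25%), against 68.6% for all genes. The share was 66.6% for genes level upon etoposide and not lowered, and 68.5% for genes lowered outside the window. The median exonic length was 4619 bases against 4507, and the median level with LPS was 11.4 CPM per kilobase against 10.9. The quartiles of the span were 9760 and 91283 bases, against 9120 and 48898 for all genes, and those of the 3′ UTR were 880.5 and 2276 bases, against 437 and 2099.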

How the data were processed

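Per the labels and the study's methods, polyadenylated RNA of 12 libraries was prepared with a stranded Illumina kit and read as single ends of 100 bases. The authors trimmed reads (Trim Galore, cutadapt 1.2.1), mapped them with TopHat2 2.0.12 to GRCm38, counted them on Ensembl genes with HTSeq (strand setting not given in the sources used here) and fitted DESeq2 1.6.3. The table they deposited as normalised counts holds a signal per gene and library that equals a fitted mean of the condition times a library factor. Fitted means of that DESeq2 version are by default moderated, so ratios of low genes may be too near 0. The planned limma fit needs replicate values and could not be run, and no p-value is given. The 3 deposited comparison tables of the authors (fold changes, standard errors, p-values) were not used.

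Computation used Python 3.11.15 with numpy 2.4.6, pandas 2.3.3 and matplotlib 3.10.9. Columns were scaled to a sum of 1000000 and averaged per condition, with no pseudocount. The genes named are the 12 lowest ratios, the 8 highest levels per kilobase, genes of the lists, genes beside a threshold, up to 3 abundant genes of each list with a chosen gene, and relatives. The values of 1 of the 33 chosen genes and of 1 B cell marker are not reported here, while the gene is included in all counts and medians. Since every other chosen gene is described, relatives and other markers were named after their values were seen. The genes and lists were chosen with earlier results of these data known. Shared sequence was counted as the share of 100-base windows of the GENCODE M21 transcripts that occur in another gene. The functions were tested on simulated data. Alternatives were 3 other scalings (median of ratios; trimmed mean of M values with trims of 30% and 5%; quantile normalisation), other thresholds, a pseudocount of 1, leaving out each library, and 250-base promoter windows.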

Additional observations from a re-analysis of the deposited data

How the results depend on the processing

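The number of genes chosen depends on the scaling and on each threshold of the rule. The rule chose 44 genes with the median of ratios, 54 with the trimmed mean of M values and 49 with quantile normalisation, of which 16, 17 and 25 were among the 33. A minimum mean of 1 CPM gave 60 genes and of 20 CPM 24, a window of -0.1 to 0.1 gave 20, a threshold of -0.8 gave 9, and a pseudocount of 1 gave 32. The fixed lists held 8 chosen genes with the median of ratios, 11 with the trimmed mean of M values and 2 at -0.8, in place of 5. For the 33 genes, the median log2 ratio of etoposide to LPS became -0.20, -0.17 and -0.07 under the 3 scalings, and that of the inhibitor condition to LPS -0.96, -0.96 and -0.82. The median for the inhibitor against etoposide stayed between -0.76 and -0.67. A median was taken as moved past 0.1, since no spread exists to measure it by. Leaving out each library in turn returned 33 genes and medians of -0.69, -0.72 and 0.018 each time, since the scaled columns of a condition are equal, and says nothing on stability. With only the 250 bases before the start, CCAAT boxes were in 47.2% of the windows (36.0% of all) and ETS cores in 8.33% (24.5% of all). No paired analysis was possible because the columns hold no replicate values. The data cannot show whether any of these differences exceeds the variation between cultures.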
